A study of Mus musculus with 13 samples.

Results

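The genes described here are 10 members of the synaptotagmin family, Syt1, Syt2, Syt3, Syt4, Syt5, Syt6, Syt7, Syt9, Syt11 and Syt13, out of 37310 annotated mouse genes. The family was chosen by an earlier result in these data, namely that peaks in an intron of Syt7 differed between groups, so the group values of Syt7 are given as a description with no test. A peak was assigned to a member when it overlapped the gene (GENCODE vM1 annotation of the mouse genome build mm9) or the 1 kb on either side of it. The edge of that rule touched Syt2 and Syt11 alone among the members. The 1 peak of Syt2 lay 262 bases past the gene's end. At Syt11 the farthest peak inside the window began 942 bases past an end of the gene, and the nearest peak outside it lay at 1020 bases. In all, 318 peaks of the untreated libraries fell in the members, and merging them over libraries gave 80 regions out of 69497 in the genome.

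Synaptotagmins are membrane proteins of synaptic and secretory vesicles that carry paired C2 domains. In most members these domains bind calcium and phospholipids and so tie the fusion of a vesicle to the entry of calcium. Syt1 and Syt2 are fast calcium sensors of transmitter release, Syt7 is a slower sensor of high affinity, Syt6 is known for its part in the acrosome reaction of sperm, and Syt4, Syt11 and Syt13 are atypical members with little or no calcium binding. The assay measured R-loops, in which nascent RNA pairs with its template strand and leaves the other DNA strand single, and which form on transcribed DNA.

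The libraries came from N2a cells, a mouse neuroblastoma line, transfected with scramble siRNA (siScramble) or with siRNA against DDX1 (siDDX1), a putative RNA helicase, or EXOSC3 (siEXOSC3), a subunit of the RNA exosome. In all groups DNA was fragmented by 5 restriction enzymes, XbaI, SspI, HindIII, EcoRI and BsrGI, before S9.6, an antibody against DNA paired with RNA, captured the hybrids (DRIP-seq). Each group had 3 untreated libraries and 1 library whose DNA had first been treated with RNase H, an enzyme that digests RNA paired with DNA. The design asks where R-loops change when either protein is depleted.

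In 12 of 12 peak lists the titled treatment went against the one written in the peak names. The title siScramble went with the peak name siDDX1, siDDX1 with siEXOSC3, and siEXOSC3 with siScramble. Group names here are those of the titles, and any direction turns on that. Read by peak names, a difference given below for siDDX1 over siScramble is one for siEXOSC3 over siDDX1, and one for siEXOSC3 over siScramble is one for siScramble over siDDX1. Tests across the 3 groups and tests of RNase H have the same values either way. Untreated lists held 23882 to 42571 peaks and RNase H lists 3811 to 8034. The lists hold no read counts, so the depth behind them is unknown, and they carry no strand, so a gene and an antisense partner cannot be told apart. A smaller value can mean fewer cells with a hybrid or fewer hybrids per cell, which bulk DNA cannot tell apart. Of 7 neuroblast marker genes, 6 had a peak, Phox2a and Hand2 among them with one in all 9 untreated libraries. Of 8 marker genes of other lineages, 0 had a peak in an untreated library.

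Peaks within the family were concentrated in Syt6 and Syt11. Over the 9 untreated libraries the 10 members together had 33444 ± 8731 bases covered by peaks (SD, n = 9), of which Syt6 held 63.8% on average and Syt6 with Syt11 87.9%. As a share of the gene and its 1 kb flanks, Syt6 was covered to 29.5% ± 7.90 (SD, n = 9), more than 90.7% of protein-coding genes. Syt11 followed with 8.97% ± 2.63 and Syt7 with 3.98% ± 2.77 (SD, n = 9), above 79.1% and 71.4% of protein-coding genes. These ranks include genes without a peak, since 11136 of the 22238 protein-coding genes had none in the untreated libraries. Syt6, Syt11 and Syt7 had a peak in every untreated library. Below them came Syt4 at 2.25%, Syt5 at 1.30%, Syt3 at 0.363%, Syt9 at 0.313%, Syt1 at 0.0759% and Syt2 at 0.0586%, and each of these 6 had an SD above its mean, so their order is not resolved. Syt6 stood above Syt11 by more than their spread, whereas the spreads of Syt11 and Syt7 overlapped. Compared within libraries, the share of Syt11 was larger than that of Syt7 in every untreated library. Syt13 had no peak in any of the 12 libraries.

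**Figure D1:**
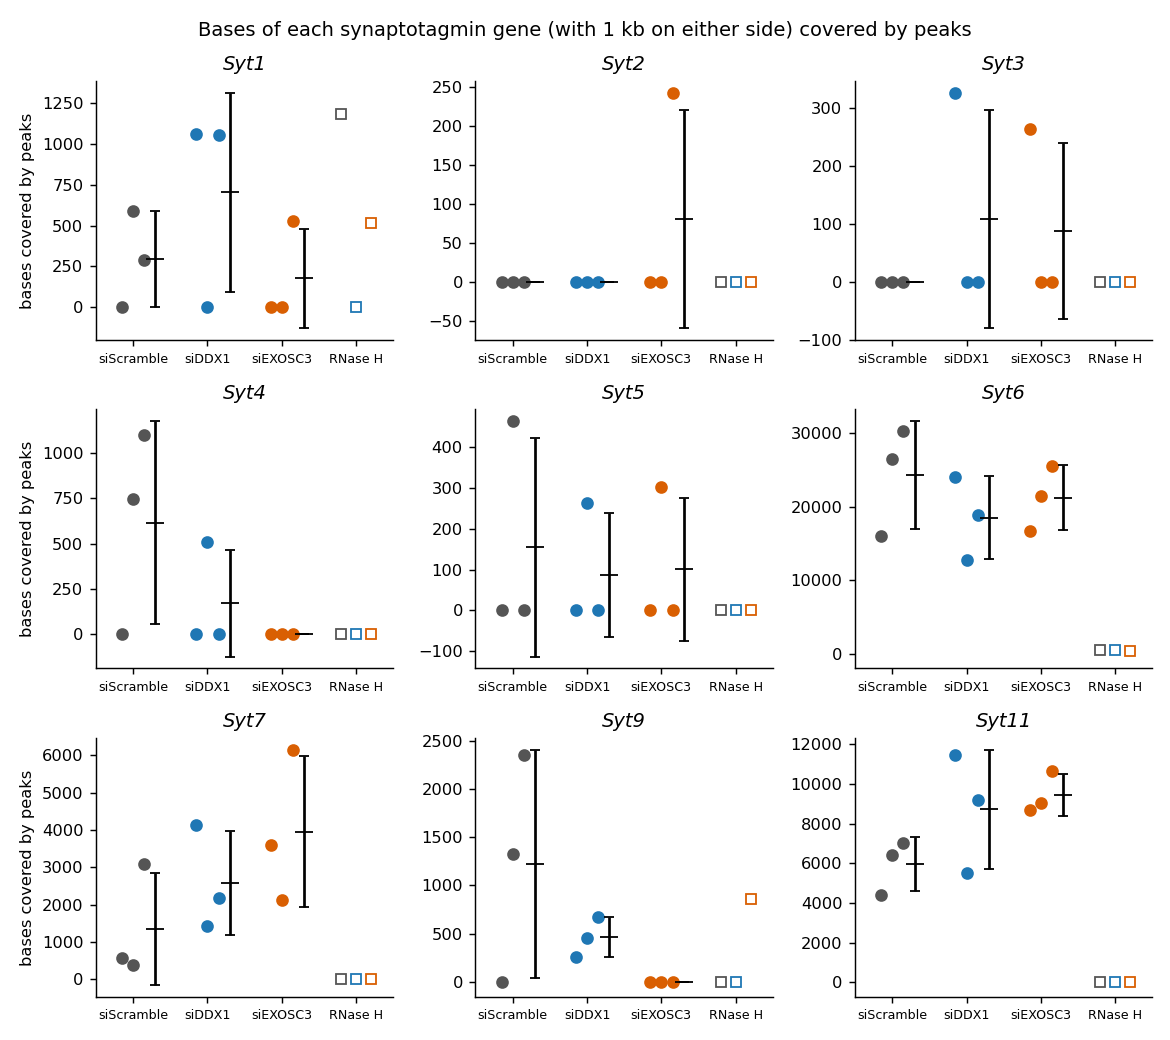
Bases of each member gene, with 1 kb on either side, that were covered by peaks in each library, for the 9 members with any peak. Filled points are untreated libraries by titled group, the bar beside them is the mean with its SD (n = 3), and open squares are the RNase H libraries in the order and colours of the groups. Syt6 reaches 30328 bases and Syt11 reaches 11471, while Syt2, Syt3 and Syt5 have a peak in 3 libraries at most, and the vertical scale differs between panels.

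Syt7, the calcium sensor of slow and asynchronous release, was covered over 574, 395 and 3087 bases in the 3 siScramble libraries. The siDDX1 libraries held 4131, 1434 and 2183 bases and the siEXOSC3 libraries 3589, 2133 and 6146. Means were 1352 ± 1505, 2583 ± 1392 and 3956 ± 2032 bases (SD, n = 3 each). The groups overlapped, because siScramble library 3 exceeded siDDX1 libraries 2 and 3 and siEXOSC3 library 2. Single libraries carried much of these differences. The siDDX1 mean exceeded the siScramble mean by 1231 bases, by 2098 without siScramble library 3, and by 752 and 457 without siScramble library 2 and without siDDX1 library 1. The siEXOSC3 mean exceeded it by 2604 bases, and by 1509 without siEXOSC3 library 3. With peaks at −log10 q of at least 5 the differences were 317 and 834 bases. No base of Syt7 was covered in any RNase H library.

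The peaks of Syt7 lay deep in the gene. Of its 14 regions, 0 lay within 1 kb of a transcript start, and the region closest to the start was centred 11.1 kb into the gene and called in 1 library. The others were centred 32.2 to 62.5 kb from the start of a gene of 64092 bases. No region was called in all 9 libraries. The most frequent one, called in 7 of 9 (2 siScramble, 2 siDDX1 and 3 siEXOSC3), was an intronic stretch of 1874 bases at chr19:10506547-10508420, with fold enrichments over the local background from 3.70 to 13.0. The next stretch downstream, of 561 bases at chr19:10509164-10509724, lay in the same intron and was among the calls that led to the choice of the family. It was called in 3 of 3 siDDX1 libraries with fold enrichments of 6.54, 6.15 and 6.48, in 2 of 3 siEXOSC3 libraries with 4.35 and 10.1, and in 0 of 3 siScramble libraries. These peaks were of middling rank in their lists, with fold percentiles from 67.3 to 70.2 in siDDX1 and of 20.0 and 82.6 in siEXOSC3. A further intronic stretch of 1299 bases at chr19:10504967-10506265 was called in 3 of 3 siEXOSC3 libraries with fold enrichments of 4.35, 3.67 and 9.65, in 2 of 3 siDDX1 libraries and in 0 of 3 siScramble libraries.

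**Figure D2:**
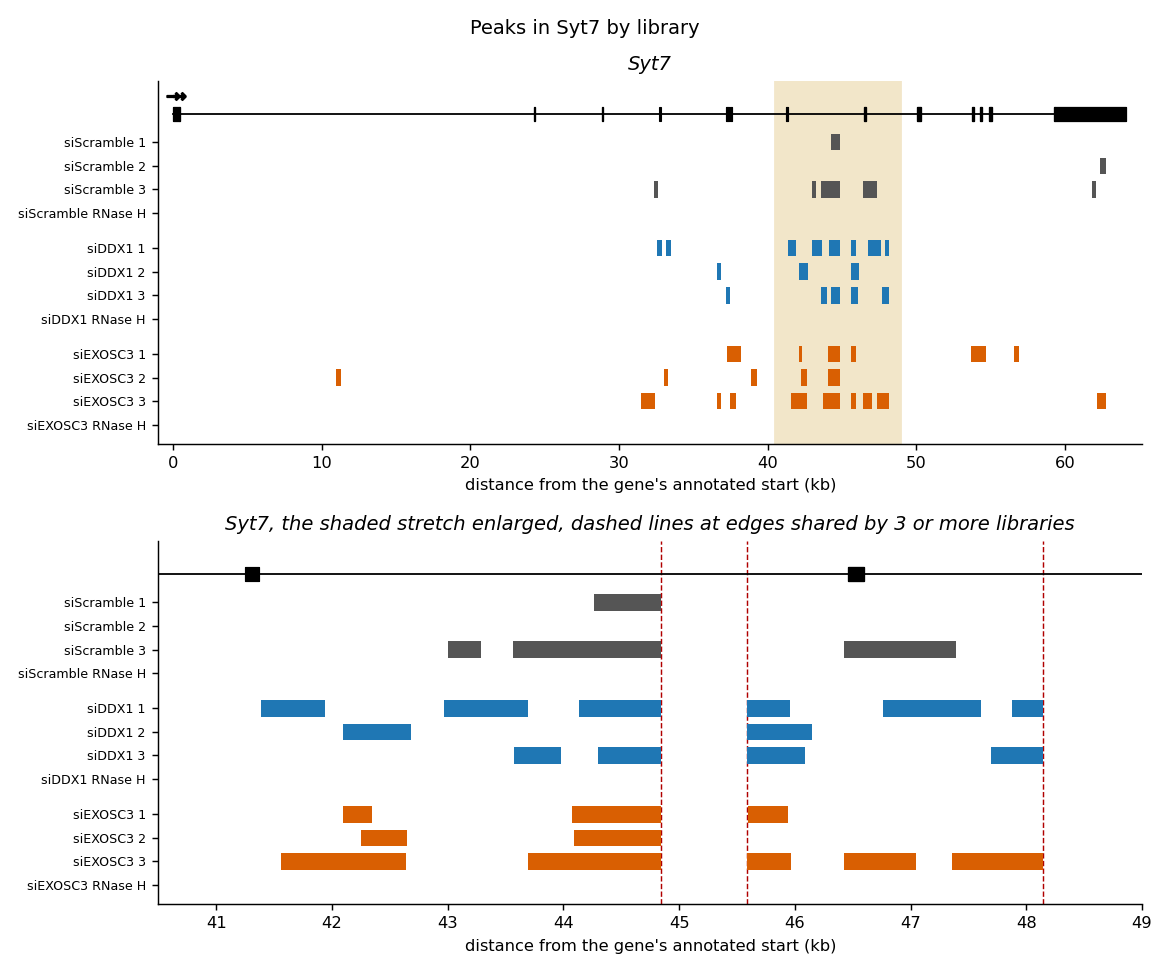
Peaks of the 12 libraries along Syt7, by distance from the annotated start in kb, with exons as black boxes and transcript starts as arrows. The upper panel shows the whole gene, and the lower panel enlarges the shaded stretch, where dashed lines mark the 3 peak edges that at least 3 libraries share to the base. Beyond the 4-base overhangs, no library has a peak in the 751-base restriction fragment between the first and second dashed lines, and the RNase H libraries have none anywhere in the gene.

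The sequence at these peaks shows where the calls begin and end. In 4 of the 5 libraries with the 561-base region the peak began at the same base, and 7 of 7 libraries with the neighbouring region ended at the same base. The remaining shared edge was the end of the last peak of that stretch in 3 libraries. Each of the 3 edges lay on a cut site of a restriction enzyme used on the DNA. The 61 bases centred on each edge are given 5′ to 3′ on the plus strand of mm9, with the recognition site in capitals.
Syt7 higher edge of the region in 7 libraries, chr19:10508390-10508450: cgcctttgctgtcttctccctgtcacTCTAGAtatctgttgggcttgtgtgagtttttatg
Syt7 lower edge of the region in 5 libraries, chr19:10509134-10509194: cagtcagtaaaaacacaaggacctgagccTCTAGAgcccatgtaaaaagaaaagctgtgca
Syt7 higher edge of the next region, chr19:10511690-10511750: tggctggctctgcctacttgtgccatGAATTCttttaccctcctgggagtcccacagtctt
The first and the second hold the site of XbaI and the last that of EcoRI. The 561-base region thus began at the first base of a restriction fragment of 2557 bases that ran from XbaI to EcoRI (chr19:10509164-10511720) and ended 1996 bases short of its far end. The rest of the fragment held the next region, of 1714 bases, which was called in 1 siScramble, 2 siDDX1 and 1 siEXOSC3 library. The fragment before it, of 751 bases between XbaI sites (chr19:10508417-10509167), had no peak in any library apart from the bases of the cut overhangs. Counted by fragment, the siScramble libraries were not all without a peak, since siScramble library 3 had one on those 2557 bases.

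The 150 bases around the middle summit of each of the Syt7 regions that were all-or-none between groups are shown next, on the strand of the gene, so that they can be set beside the start of Syt6 below. Capitals mark runs of 4 or more G or of 4 or more C, a simple measure of the guanine clusters often found at R-loops, and neither window holds one. Among the central 150 bases of all regions, 59.6% hold GGGG on either strand.
Syt7 561-base region, chr19:10509247-10509396, plus strand: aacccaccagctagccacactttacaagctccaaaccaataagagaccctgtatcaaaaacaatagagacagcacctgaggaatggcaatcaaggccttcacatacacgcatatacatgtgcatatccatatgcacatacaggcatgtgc
Syt7 1299-base region, chr19:10505778-10505927, plus strand: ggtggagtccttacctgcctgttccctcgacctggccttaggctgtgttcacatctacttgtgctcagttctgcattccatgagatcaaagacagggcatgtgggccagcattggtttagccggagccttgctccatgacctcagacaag
GC content over the full regions was 51.0% and 58.3%, against a median of 54.8% over the 14 regions of Syt7 and 47.6% over all regions.

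Regions called in 3 of 3 libraries of 1 group and 0 of 3 of another, here called all-or-none, were rare in the genome, and 2 of the 80 regions in members were of this kind, both in Syt7. Between siDDX1 and siScramble, 1 member region was called in siDDX1 alone, against 0.2% of all regions, and 0 in siScramble alone, against 0.403%. Between siEXOSC3 and siScramble, 1 member region was called in siEXOSC3 alone, against 0.544% of all regions, and 0 in siScramble alone, against 0.512%. Between siEXOSC3 and siDDX1 there was 0 in either direction, against 0.506% for siEXOSC3 alone and 0.393% for siDDX1 alone. Nothing is read from the Syt7 counts, since that intron chose the family. The call of the 561-base region in 3 of 3 siDDX1 and 0 of 3 siScramble libraries was also found with peaks at −log10 q of at least 5 and when each list was shortened to its best 23882 peaks. Joining peaks within 1000 bases of each other made the region part of one of 6754 bases that was called in 2 of 3 siScramble libraries and was no longer all-or-none. The 1299-base region was not all-or-none in lists of equal length, when 50% of the region had to be covered, or with peaks at −log10 q of at least 5, where 1 of 3 siEXOSC3 libraries kept a peak there. At that q the 1 member region called in siEXOSC3 alone against siScramble lay in Syt11, against 0.498% of all regions.

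Syt6 carried the longest and strongest peaks of the family. In the siScramble libraries 16058, 26475 and 30328 bases were covered, in the siDDX1 libraries 24014, 12713 and 18850, and in the siEXOSC3 libraries 16728, 21461 and 25515. Means were 24287 ± 7382, 18526 ± 5657 and 21235 ± 4398 bases (SD, n = 3 each), and the ranges of the 3 groups overlapped. The lowest value of each group came from its list with the fewest peaks. Of the 22 regions of Syt6, 5 were called in 9 of 9 libraries and 11 in at least 5.

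The region over the start of Syt6, 4572 bases at chr3:103377694-103382265, was called in every untreated library. It reached from -1.46 kb to 3.11 kb relative to the annotated start. Its fold enrichment was 11.1, 19.8 and 21.7 in siScramble, 24.0, 12.3 and 11.7 in siDDX1 and 17.4, 14.6 and 28.3 in siEXOSC3. In each list these values ranked between the percentiles 92.4 and 99.0. The other 4 regions called in all 9 libraries lay 30.6 to 58.1 kb from the start, and the last of them, at chr3:103433309-103437254, had fold enrichments from 7.72 to 18.7. Past the end of the second longest transcript, at chr3:103439102, no library had a peak, although the longest transcript runs on by more than 10 kb into a stretch that also holds the pseudogene Atg4a-ps on the opposite strand.
The 150 bases around the middle summit of the start region hold 3 runs of 4 or more G or C, in capitals.
Syt6 start region, chr3:103378587-103378736, plus strand: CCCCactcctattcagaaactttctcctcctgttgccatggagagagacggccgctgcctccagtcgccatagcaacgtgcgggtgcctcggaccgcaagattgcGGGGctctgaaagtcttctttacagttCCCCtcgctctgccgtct
The GC content of this window was 58.7%, against 44.7% and 54.0% in the Syt7 windows above. The middle summit, chr3:103378662, was that of siDDX1 library 2, and no other library had a summit in the window. In siScramble libraries 2 and 3, siDDX1 library 1 and siEXOSC3 libraries 2 and 3 the main summit lay at chr3:103377696-103377890. The window thus does not describe the sequence where those libraries peaked.

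One place in Syt6 had peaks only in the RNase H libraries. It lay in an intron at chr3:103407209-103407705, 28.1 to 28.6 kb from the start, and was called in 3 of 3 RNase H libraries with fold enrichments of 11.2, 6.27 and 6.49 and in 0 of 9 untreated libraries. The nearest untreated regions were 1477 bases before it and 360 bases after it. RNase H lists are short and their folds belong to their own local background, so the fold values are not set against those of untreated libraries. Up to 300 bases shared by the 3 peaks are shown on the plus strand, with the run of 4 or more G in capitals.
Syt6 RNase H peak, chr3:103407348-103407647, plus strand: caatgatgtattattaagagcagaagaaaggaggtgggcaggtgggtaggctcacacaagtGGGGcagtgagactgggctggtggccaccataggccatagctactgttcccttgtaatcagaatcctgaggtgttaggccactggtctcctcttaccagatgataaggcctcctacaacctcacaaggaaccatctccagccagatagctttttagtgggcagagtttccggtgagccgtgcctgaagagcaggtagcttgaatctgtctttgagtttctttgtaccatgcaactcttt
The GC content of the 3 peaks was 47.3%, 47.3% and 45.8%, against a median of 43.7% over all 15755 RNase H peaks.

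Syt11, an atypical member that works in membrane trafficking, was covered over 4411, 6416 and 7030 bases in siScramble. The siDDX1 libraries held 11471, 5496 and 9197 bases and the siEXOSC3 libraries 8674, 9037 and 10639. Means were 5952 ± 1370, 8721 ± 3016 and 9450 ± 1046 bases (SD, n = 3 each). All 3 siEXOSC3 libraries lay above all 3 siScramble libraries, while siDDX1 library 2 lay within the siScramble range. The RNase H libraries held none.

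Most covered bases of Syt11 lay in its downstream part, with recurrent regions upstream as well. The region called in 9 of 9 libraries, 3929 bases at chr3:88553084-88557012, lay 79.2 to 83.1 kb from the annotated start and spanned the start of a short transcript, with fold enrichments from 5.50 to 11.0 and a median of 8.67. Another 3 regions were called in 8 of 9. The first was exonic at chr3:88565427-88566813, with a median fold of 6.70. The second was intronic at chr3:88625865-88627534, 8.69 to 10.4 kb from the start, with a median of 8.78 and a highest value of 14.5. The last, at chr3:88636979-88637616, lay outside the gene, from -1397 to -760 bases relative to the annotated start, with a median of 6.34. Its peak in siScramble library 1, of 249 bases and a fold of 4.37, lay wholly past the 1 kb flank. That peak counts for the region but not for the covered bases of Syt11. The body of the gene up to the starts of the shorter transcripts, 31465 bases with the downstream 1 kb flank, held 4676 ± 471, 7070 ± 2377 and 6936 ± 755 covered bases in siScramble, siDDX1 and siEXOSC3 (SD, n = 3 each). The 58133 bases upstream, made up of the stretch that the longest transcript alone reaches and the 1 kb flank before its start, held 1276 ± 902, 1651 ± 688 and 2514 ± 302. Most of that upstream part, 51113 bases, is shared with the pseudogene 5830417I10Rik on the opposite strand, and 1076 ± 830, 1207 ± 304 and 2250 ± 363 of the covered bases fell there, so they cannot be given to Syt11 alone.

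**Figure D3:**
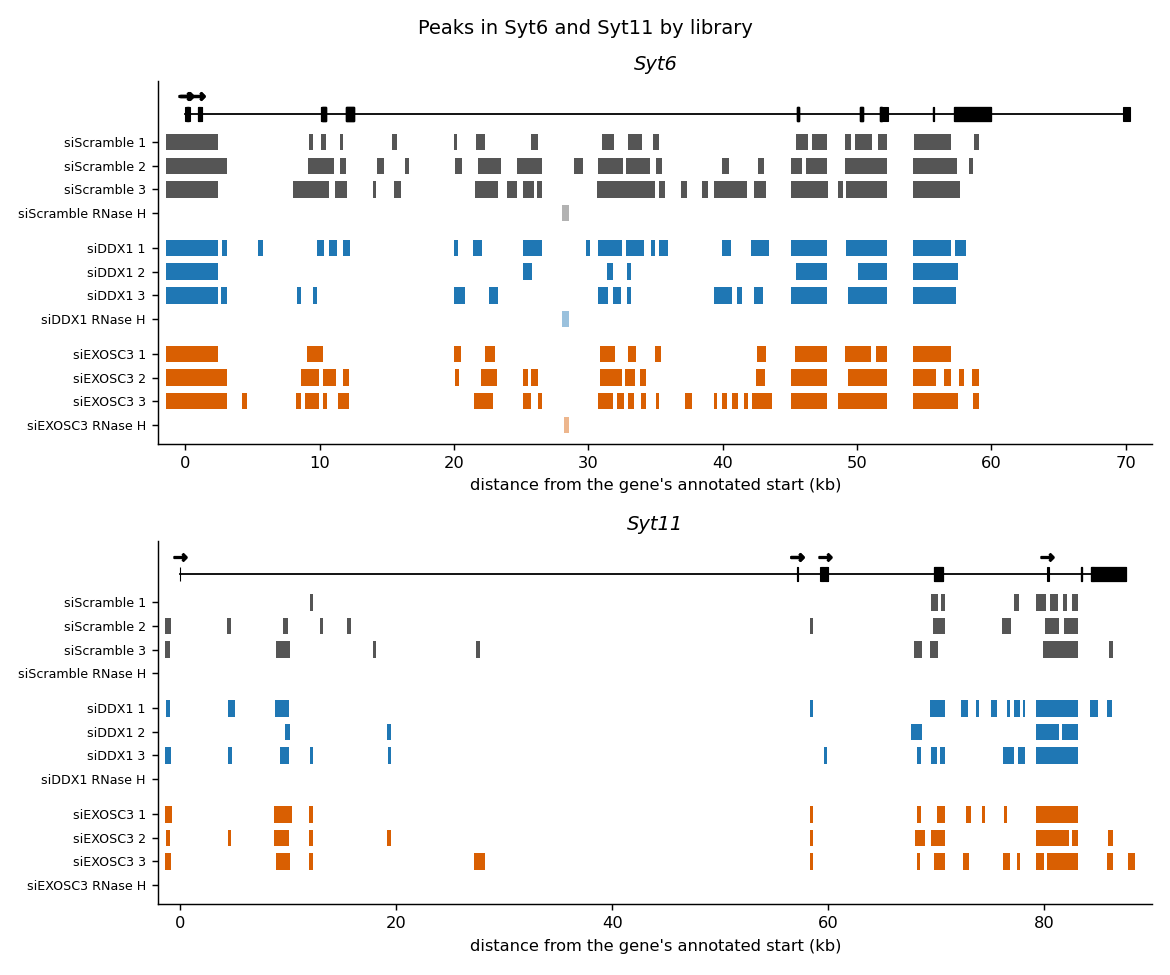
Peaks of the 12 libraries along Syt6 and Syt11, by distance from the annotated start in kb, with exons as black boxes and transcript starts as arrows. In Syt6 the block over the start and the blocks 45 to 58 kb into the gene recur in the 9 untreated libraries, and pale boxes 28 kb from the start are the peaks of the RNase H libraries. In Syt11 the recurring block lies 79.2 to 83.1 kb from the start.

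The remaining members had few peaks. Syt1, the main fast calcium sensor, was covered over 0, 590 and 289 bases in siScramble, 1059, 0 and 1054 in siDDX1 and 0, 0 and 529 in siEXOSC3. Its RNase H libraries held 1186, 0 and 514 bases, so untreated and RNase H totals overlapped, although the RNase H peaks lay outside all untreated peaks of Syt1. Of its 9 regions, 8 were called in 1 library each. In Syt9, 0, 1328 and 2352 bases were covered in siScramble, 261, 456 and 679 in siDDX1 and 0, 0 and 0 in siEXOSC3, while the siEXOSC3 RNase H library held 862. The siEXOSC3 libraries of Syt9 were thus all below the siDDX1 libraries, whereas siScramble library 1 was at 0 like them. The 7 regions of Syt9 were intronic and none was called in more than 2 libraries.

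Syt4, another member with weak calcium binding, had 0, 746 and 1098 covered bases in siScramble, 0, 508 and 0 in siDDX1 and none in siEXOSC3. These 4 peaks formed 1 region of 1098 bases over an exon, 2.77 to 3.86 kb from the start, where the long noncoding RNA Gm16871 lies on the opposite strand. Syt5 had 463, 263 and 302 covered bases in library 2 of siScramble, siDDX1 and siEXOSC3 and none elsewhere. Syt3, a calcium sensor also found outside the presynapse, had 327 bases in siDDX1 library 1 and 264 in siEXOSC3 library 1. Syt2, the close relative of Syt1, had 242 bases in siEXOSC3 library 3, all past the gene's end. The median fold enrichment of untreated peaks was 4.45 in Syt1, 4.34 in Syt9, 4.28 in Syt5, 4.14 in Syt3 and 4.27 for the single peak of Syt2. It was 6.04 over the 4 peaks of Syt4, between the 6.51 of Syt6 and 6.12 of Syt11 and the 5.24 of Syt7.

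No member passed the test across the 3 groups. Covered bases were compared over the 280 ways to deal the 9 untreated libraries into 3 groups, by an exact permutation test of the F statistic, for every gene with a peak. Of the 8 members tested, 0 had an exact p at or under 0.05, against 3.17% of 13647 genes. Syt2 and Syt3, with a peak in 1 and 2 untreated libraries, could not have passed, so their result says nothing about the groups. Genes with so few peaks are also among the 13647. The smallest exact p was that of Syt9 with 0.121, followed by Syt11 with 0.182, Syt4 with 0.25, Syt1 with 0.336 and Syt6 with 0.496, and Syt2, Syt3 and Syt5 had an exact p of 1. After Benjamini-Hochberg adjustment over all genes each of these permutation p-values was 1, and 0 of the 13647 genes passed at 0.05. The smallest exact p that this design allows is 0.00357. Leaving out siScramble library 1 brought Syt9 to an exact permutation p of 0.00357 (adjusted p = 0.714). In that setting 6.72% of all genes tested had an exact permutation p at or under 0.05. Leaving out siDDX1 library 2 brought Syt11 to an exact permutation p of 0.025 (adjusted p = 1), where that share was 3.03%.

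The lists differ in length, so Syt6, Syt7 and Syt11 were also expressed per Mb covered in the whole list, a scaling chosen after the data were seen. Syt11 then had 190, 162 and 161 covered bases per Mb in siScramble, 253, 250 and 327 in siDDX1 and 306, 297 and 268 in siEXOSC3. On this scale every siScramble library lay below every other library, and the exact permutation p was 0.0286 (adjusted p = 0.534), in a setting where 8.76% of genes had a p at or under 0.05. Syt6 had 693, 668 and 693 bases per Mb in siScramble, 530, 579 and 670 in siDDX1 and 591, 706 and 643 in siEXOSC3, with an exact permutation p of 0.161. Syt7, with no test, had 24.8, 9.96 and 70.6 bases per Mb in siScramble, 91.2, 65.3 and 77.5 in siDDX1 and 127, 70.2 and 155 in siEXOSC3.

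**Figure D4:**
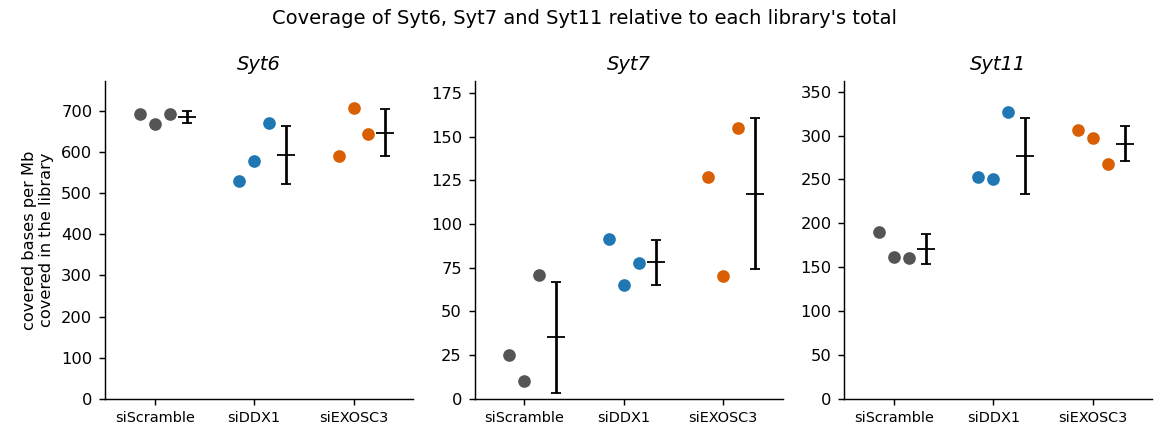
Covered bases of Syt6, Syt7 and Syt11 per Mb covered in the whole peak list, by untreated library and titled group, with mean and SD beside the points (n = 3). The 3 siScramble points of Syt11, from 161 to 190, lie below the other 6, from 250 to 327, while those of Syt6 overlap the other groups.

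Of the 2 most covered members, Syt11 had no peak in the RNase H libraries and Syt6 had 1 intronic peak. That peak lay outside all untreated peaks and covered 497, 497 and 358 bases in the siScramble, siDDX1 and siEXOSC3 RNase H libraries. The mean over groups of untreated minus RNase H covered bases was 20898 in Syt6 and 8041 in Syt11. Both had an exact permutation p of 0.0156, the smallest that the 64 assignments allow, and an adjusted p of 0.0409. The same call was made for 36.2% of 14869 genes. For Syt7 the difference was 2630 bases, with 0 in each RNase H library and an exact permutation p of 0.0313 (adjusted p = 0.0713). Syt7 was chosen by calls in untreated libraries, which also enter this test, so its p-value is only descriptive. For Syt1 the difference was -175 bases, with an exact permutation p of 0.625. Syt2, Syt3, Syt4, Syt5 and Syt9 had exact permutation p-values from 0.5 to 1. So 2 of 9 members tested were called. Leaving out siScramble library 1 kept both calls (adjusted permutation p of 0.0486). When any 1 of the other 8 untreated libraries was left out, their adjusted permutation p rose to between 0.0501 and 0.0601, and the smallest exact p then allowed is 0.0208. In each of those 8 settings 0 of all genes tested were called, whereas 40.9% were without siScramble library 1.

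Member regions are set beside all regions with no test, since peak positions in Syt7 were part of the choice. Of the 80 member regions 46.3% were called in a single library, against 45.3% of all regions, and 7.5% in all 9, against 10.7%. Median length was 547.5 bases against 517, and median GC content 48.3% against 47.6%. Within 1 kb of a transcript start of any annotated gene lay 8.75% of member regions, against 23.6% of all regions. The share was 10.6% of the 66 regions in members other than Syt7. Of the 7 member regions near such a start, 5 belonged to Syt11, 1 to Syt6 and 1 to Syt1. Starts of other genes count here, and not all 5 of the Syt11 regions lay near a start of Syt11. The 20 exonic, 57 intronic and 3 flanking regions make up the 80.

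Most peak edges that recurred in Syt6, Syt7 and Syt11 lay on cut sites, as they did in the whole genome. An edge was counted as on a cut when a peak began at the first base after it, or ended at the last base once the 4-base overhang left by 4 of the 5 enzymes is filled in. Of the 318 untreated peaks in members, 163, or 51.3%, had at least 1 edge on a cut, against 56.5% of all untreated peaks. Of regions, 56.3% in members and 59.2% of all had one. In members, 25 edges were shared to the base by at least 3 libraries, and 24 of these lay on a cut: 14 of 14 in Syt6, 3 of 3 in Syt7 and 7 of 8 in Syt11. The other 7 members had no such edge. Over the whole genome 98.8% of 26590 edges shared in this way lay on a cut. The edges that all 9 libraries share are given on the plus strand, with the recognition site in capitals.
Syt6 lower edge of the start region, chr3:103377664-103377724: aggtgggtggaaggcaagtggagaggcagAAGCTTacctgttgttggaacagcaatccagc
Syt6 higher edge of the region 48.6 to 52.3 kb from the start, chr3:103431382-103431442: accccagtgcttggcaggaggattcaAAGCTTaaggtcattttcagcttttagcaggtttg
Syt11 lower edge of the region called in 9 libraries, chr3:88553054-88553114: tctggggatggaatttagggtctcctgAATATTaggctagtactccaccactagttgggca
Both Syt6 edges hold HindIII sites and the Syt11 edge an SspI site. Cut sites were sparsest in Syt7 and Syt2, with 1 per 1.27 kb in each, against 1 per 0.640 kb in Syt6, 0.786 kb in Syt11 and 0.444 kb in Syt1.

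Some genes of the release pathway were covered over more of their length than any synaptotagmin. Of the 7 other synaptotagmins in the annotation, Syt14 had a peak in 9 of 9 untreated libraries, and 6 had none. Of 45 genes of the release machinery (SNARE proteins, their partners, Rab3 proteins, synapsins and relatives with C2 domains), 31 had a peak in an untreated library, 17 had one in all 9 and 14 had none, compared with 9, 3 and 1 of the 10 members. Over all 22238 protein-coding genes, 11102 had a peak and 5834 had one in all 9. Median coverage of the gene window was 0.831% in members and 1.62% in the release machinery. Rab3a, a vesicle GTPase, was covered to 70.7%, Unc13a, which primes vesicles, to 67.7%, Vamp2, the vesicle SNARE to which Syt1 couples calcium, to 44.8%, and Sytl1, a relative with C2 domains, to 36.5%. In mean covered bases, Rab3a with 4243, Vamp2 with 2640 and Sytl1 with 4391 lay below every untreated library of Syt6 (lowest 12713). Unc13a had 31843. Across the groups 3 of the 31 genes with a peak had an exact permutation p at or under 0.05, against 3.17% of 13647 genes. Among them were Doc2a with an exact permutation p of 0.0357 and Sytl3 with 0.0143, and 0 passed after adjustment over all genes. With RNase H, 12 of the 34 release genes tested, or 35.3%, were called lower, against 36.2% of all genes, and 1 higher.

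**Figure D5:**
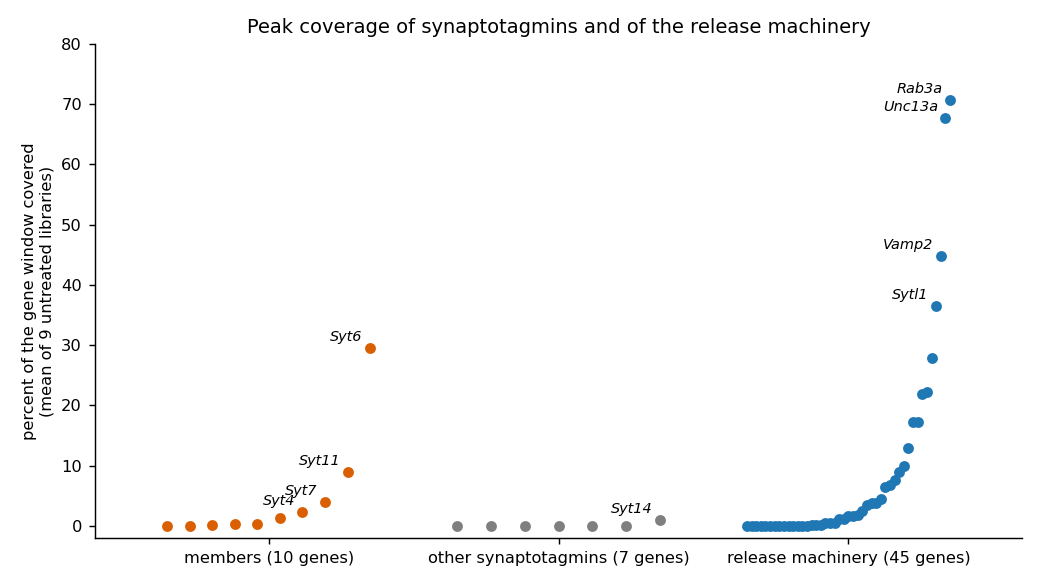
Percent of each gene window covered by peaks, as the mean of 9 untreated libraries, for the 10 members, 7 other synaptotagmins and 45 genes of the release machinery, sorted within each set. Syt6 at 29.5% is the highest synaptotagmin, and Rab3a, Unc13a, Vamp2 and Sytl1 lie above it.

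The genes most like Syt7 in covered bases over the 9 untreated libraries, out of 10017 compared, were Kctd10 with a Pearson r of 0.961, Bcan with 0.953 and Cdc42bpg with 0.946. The points share their libraries and hence the number of peaks called in each. Bcan, which encodes the neural proteoglycan brevican, was covered over 501, 627 and 1942 bases in siScramble, 3771, 1060 and 1642 in siDDX1 and 2293, 2565 and 5334 in siEXOSC3, with its highest value in the same library as Syt7.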

How the data were processed

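Per the methods, the authors aligned reads to mm9 with Bowtie2 2.4.4 and called peaks per library with MACS2 2.2.6 against input. Of the 13 samples, 12 peak lists were used here, and the input sample was not analysed here. In the deposited lists the fold enrichment is a ratio over the local background, and p-value and q-value are on a −log10 scale, all from the authors' MACS2 run. The deposited display score was not used. Read counts were not used here, so the authors' DESeq2 test was not repeated.

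Members and lists were chosen with earlier results of these data known. All 10 members are named, list genes where 5 or fewer were counted (some values are not reported here) or where singled out after their values were seen (Rab3a, Unc13a, Vamp2, Sytl1), and the 3 genes most like Syt7 by Pearson r among genes with a peak in at least 5 libraries. Groups follow the titles. Covered bases per gene and 1 kb flanks were tested by exact permutation over libraries, for all genes with a peak, with Benjamini-Hochberg adjustment. Per the methods, replicates were separate plates of the same line, so p-values measure the spread between such plates. Regions were unions of touching untreated peaks, and 1 shared base made a call. Sequences were read from NCBIM37, the assembly of mm9. Alternatives were other gene bounds, a stricter q, an equal number of peaks (23882), log2 values with a pseudocount of 1 base, joined peaks, a replicate block, left-out libraries and a scaling per covered Mb. The tests were tried on simulated data. Python 3.11.15, numpy 2.4.6, scipy 1.17.1 and matplotlib 3.10.9 were used.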

Additional observations from a re-analysis of the deposited data

Results flagged for a closer look

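Syt9 differed in direction between groups when untreated libraries were set against RNase H. The untreated mean minus the RNase H value was 465 covered bases in siDDX1, where 261, 456 and 679 bases were covered and 0 remained with RNase H, and -862 in siEXOSC3, where 0, 0 and 0 bases were covered and the RNase H library held 862. Each untreated library of siDDX1 lay above its RNase H library and each of siEXOSC3 below it. The siEXOSC3 RNase H peaks lay 110.8 to 112.0 kb from the start of Syt9, outside every untreated peak of the gene. The totals thus compare different places in Syt9. With 1 RNase H library per group the difference between the groups was not tested.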

How the results depend on the processing

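Peak calls, with no read counts, limit what can be seen: a change within a region called in every library does not appear, weak peaks come and go with list length, and 3 libraries per group allow few p-values. No member passed the adjusted threshold across groups under any of the alternatives run. With a replicate block, 0 members and 0.491% of genes had an exact permutation p at or under 0.05, where the smallest possible is 0.0278. The replicate numbers did not pair the libraries, since same-numbered ones correlated from -0.158 to 0.0941 and 3 of 9 matched best with their own number. The count of members at p of 0.05 was 1 per covered Mb (Syt11), and 0 to 1 with each library left out. Over all genes tested the share was 8.76% per covered Mb and 2.24% to 8.91% with each library left out. The count lower with RNase H was 0 to 2 with each library left out, and where it was 0, no gene of the genome was called either. For regions called in one group alone, leaving out each library gave 1 to 3 in members for siDDX1 with siScramble (1 with all libraries), 1 to 5 for siEXOSC3 with siScramble (1) and 0 to 1 for siEXOSC3 with siDDX1 (0). These counts pool both directions, and the share over all regions moved too. Regions in siScramble alone against siEXOSC3 were 0 to 3 in members and 0.528% to 3.48% of all, the highest of both without siScramble library 1, where 2 member regions were in siEXOSC3 alone. Regions in siScramble alone against siDDX1 were 0 to 2 in members and 0.410% to 2.95% of all. Those in siDDX1 alone against siScramble were 1 to 2 in members and 0.202% to 1.43% of all. Those in siEXOSC3 alone against siScramble were 1 to 4 and 0.553% to 1.79%. Between siEXOSC3 and siDDX1, members had 0 to 1 in each direction. The shares of all regions were 0.511% to 2.19% for siEXOSC3 alone and 0.397% to 1.84% for siDDX1 alone. For siEXOSC3 with siScramble, joining peaks gave 2. Of these, 1 was in Syt7 in siEXOSC3 alone (0.611% of all regions) and 1 in Syt6 in siScramble alone (0.578%). Requiring 50% of the region gave 0 in either direction, against 0.433% and 0.416% of all regions. Equal peak numbers gave 0, against 0.710% and 0.714%. For siEXOSC3 with siDDX1, joining peaks gave 1, in Syt9 in siDDX1 alone (0.493% of all regions). For siDDX1 with siScramble, joining peaks gave 1, in Syt6 in siScramble alone (0.370%), in place of the Syt7 region. With log2 values the adjusted permutation p of Syt7 for RNase H was 0.0341, which is only descriptive since calls in Syt7 chose the family. With equal peak numbers Syt7 means were 1161 ± 1175, 1670 ± 232 and 2541 ± 1020 bases in siScramble, siDDX1 and siEXOSC3.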
